A study of Mus musculus with 468 samples.

Results

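The 10 genes described here encode enzymes that carry long-chain fatty acids into mitochondria and oxidize them there: the carnitine palmitoyltransferases Cpt1a, Cpt1b and Cpt2, the acyl-CoA dehydrogenases Acadvl, Acadl, Acadm and Acads, the trifunctional protein subunits Hadha and Hadhb, and the electron acceptor Etfdh. They were picked by gene symbol, and all 10 were found among the 23180 genes of the table and passed the filter on low counts. The lowest expected count of any of them in any library was 230.9. Transcripts were measured by RNA sequencing in adipose tissue of Diversity Outbred (DO) mice, whose stock was bred from several inbred founder strains so that animals differ in genotype. The diet was rich in fat and sugar (45 percent fat by the labels), no mouse had another diet, and per the study's methods both sexes were included and killed as adults at a common age. Every mouse contributed a single library, the labels name the tissue only as adipose where the study's text gives the gonadal fat pad, and they give neither sex, generation nor batch, so all libraries form 1 group and the comparisons are of how transcripts varied together among mice. Since no mouse was measured again, biological and assay variation cannot be told apart in this spread.

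Fatty acids are burned in the mitochondrial matrix. CPT1, on the outer membrane, joins long-chain acyl groups to carnitine and is the step that malonyl-CoA inhibits. Cpt1a encodes the form known from liver and Cpt1b the form known from muscle and brown fat. CPT2, on the inner membrane, reverses that transfer. The acyl-CoA dehydrogenases then open each turn of beta-oxidation on chains of very long (Acadvl), long (Acadl), medium (Acadm) or short (Acads) length, the trifunctional protein completes the turn for long chains, and Etfdh passes the electrons to ubiquinone. In white fat these enzymes serve ordinary energy needs, whereas brown and beige adipocytes burn fatty acids to make heat through Ucp1, the uncoupling protein of the inner membrane. Pparg encodes the nuclear receptor that drives adipocyte formation.

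Counts from the Y chromosome genes Ddx3y, Eif2s3y, Kdm5d and Uty were present in 51.5% of libraries and absent from 48.5%, and this split stands in for the sex that the labels lack. Total expected counts per library ranged from 35.3 M to 137.8 M (median 82.04 M, where M is 1000000). The markers of adipocytes were present throughout: Adipoq, which encodes adiponectin, was at 499.6 CPM (counts per 1000000 counts) or more in every library, and Plin1, a lipid droplet coat protein, at 573.4 CPM or more. The summed level of 12 macrophage markers ran from 360.97 to 7211 CPM, that of the 12 skeletal muscle markers past the filter from 4.74 to 6926 CPM (median 37.8), and that of 8 liver markers from 0.702 to 6467 CPM (median 33.3). No marker of these lists had a median of 0. The muscle markers Myh4, Myh7 and Pvalb were under the filter. In bulk tissue, fewer cells of a type and less RNA per cell cannot be told apart.

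Ucp1 itself spread over a very wide range. In the libraries without Y counts it had a lowest level of 0.216, a median of 448.2 and a highest level of 4514 CPM, and in those with Y counts a lowest level of 0.0573, a median of 3.02 and a highest level of 85.7 CPM. The ranges overlapped at the low end, and 74.01% of libraries without Y counts lay above the highest library with Y counts. Pparg moved much less, from 64.3 through a median of 161.8 to 306.7 CPM without Y counts and from 51.95 through 124.5 to 210.2 CPM with Y counts.

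Levels of different genes are compared here as CPM per kb of exon, because a longer transcript gathers more reads. By the median over all libraries the order on this scale was Hadhb (189.7), Acadm (183.98), Acadl (120.5), Acadvl (104.2), Hadha (78.5), Acads (57.3), Etfdh (53.4), Cpt2 (49.9), Cpt1a (31.2) and Cpt1b (8.71). This order pools the libraries with and without Y counts, and several neighbours in it were not in the same order in every mouse. Acadl was above Acadvl in 63% of libraries, and Acads was above Etfdh in only 43.6%, although its median was higher. Cpt1a was above Cpt1b in 67.9%. The order of medians also differed between the sets. Without Y counts Cpt1b (43.4) was above Cpt1a (23.8) and Etfdh (98.8) above Acads (82.3). With Y counts Cpt1a (37.8) was above Cpt1b (5.60) and Acads (45.9) above Etfdh (44.9). Hadha, in contrast, lay above Acads in 99.6%.

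**Figure D1:**
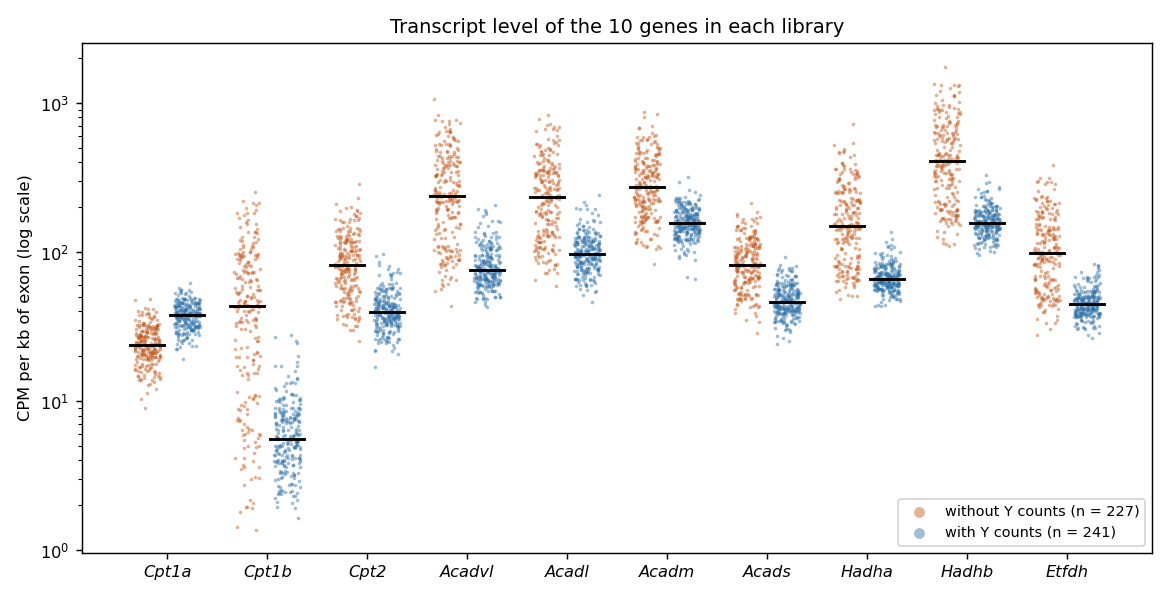
Level of each gene in each library, as CPM per kb of exon on a log scale, with libraries without Y counts in orange and with Y counts in blue. Each point is 1 mouse and black bars are medians. Cpt1b covers the widest range, and Cpt1a is the gene whose median is lower in the libraries without Y counts (23.8 against 37.8 CPM per kb).

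Spread among the mice differed between the genes. The coefficient of variation (SD divided by mean of CPM) was 1.43 for Cpt1b, between 0.476 and 0.913 for the 8 genes downstream of CPT1, and 0.317 for Cpt1a. The biological coefficient of variation estimated by edgeR, which removes counting error, gave the same order at its ends, with 1.18 for Cpt1b, which exceeded that of 95.4% of all genes, and 0.328 for Cpt1a, close to the median of all genes (0.312). Most of the spread lay among the libraries without Y counts. Hadha, for example, had an SD of 0.87 on the log2 scale in those libraries and 0.28 in the others.

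The balance of the CPT1 forms at the entry step differed widely between mice. Cpt1a (chromosome 19, 3322334 to 3385733, GRCm38) had a lowest level of 38.9, a median of 102.6 and a highest level of 208.9 CPM in libraries without Y counts, and of 83.1, 163.1 and 267.4 CPM in libraries with Y counts. Cpt1b (chromosome 15, 89416405 to 89425863) had 3.98, 125.5 and 726.6 CPM without Y counts and 4.78, 16.2 and 80.2 CPM with Y counts. The groups overlapped for both genes, but high Cpt1b levels were found in libraries without Y counts and high Cpt1a levels in those with them. Per kb of exon, Cpt1b exceeded Cpt1a in 65.6% of libraries without Y counts and in 0.415% (1 library) of those with them. The ratio of Cpt1b to Cpt1a per kb ran from 0.0423 in mouse DO253 to 24.2 in mouse DO237, both without Y counts, with a median of 1.71 there, and from 0.0465 through 0.147 to 1.03 with Y counts. The annotation places a second protein-coding model, Gm44502, over the whole of Cpt1b on the same strand, and it was not among the genes measured, so reads of Cpt1b may also come from that model.

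This ratio followed Ucp1 closely. Its log2 value correlated with log2 Ucp1 at r = 0.952 (Spearman's rho 0.962) in libraries without Y counts and at r = 0.691 (rho 0.701) in those with them, where each permutation p was 1e-05, the smallest that 100000 resamples can give (1.33e-05 after Benjamini-Hochberg adjustment over 4 relations). Without the 2 libraries farthest from the median of Ucp1, r was 0.955 and 0.691. Within 5 blocks of consecutive library numbers r ran from 0.943 to 0.965 without Y counts and from 0.588 to 0.848 with them. Within 5 blocks of mouse numbers it ran from 0.928 to 0.970 and from 0.655 to 0.745. Cpt1b alone gave r = 0.964 without and 0.735 with Y counts, so the ratio was no closer to Ucp1 than Cpt1b was. Cpt1a alone gave r = -0.643 and 0.115. With Pparg the ratio gave r = 0.569 (rho 0.539, permutation p = 1e-05) without Y counts and 0.176 (rho 0.216, permutation p = 0.00615, the same after adjustment) with them. In the latter the blocks ran from 0.0525 to 0.274 by library number and from -0.0194 to 0.454 by mouse number, so that relation did not hold within every block.

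To measure how each gene moved with Ucp1 across all mice, edgeR's quasi-likelihood test was fitted to all 18379 other genes with the presence of Y counts as a covariate. The slope is the log2 change of a gene per SD of log2 Ucp1, which was 4.02 log2 units. All 10 genes passed the threshold of adjusted p 0.05, as did 63.2% of all genes (26.5% rising and 36.7% falling), so that passing is common here and the sizes are given. With Ucp1, 9 of the genes rose and Cpt1a fell. The median slope of the 10 was 0.79, against -0.03 over all genes, 95% of which lay at or below 0.29.

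Cpt1b had a slope of 1.92 ± 0.055 (SE, all libraries, adjusted p = 2.41e-127 by edgeR's quasi-likelihood test), a 3.79-fold rise per SD of Ucp1. This was rank 6 of all genes in a ranking that includes Ucp1 itself. Cpt1a had a slope of -0.22 ± 0.025 (adjusted p = 3.03e-16). Cpt2 (chromosome 4, 107903981 to 107923610), the inner membrane partner of both, rose by 0.67 ± 0.032, a 1.59-fold change. Its levels ran from 60.1 through a median of 193.8 to 674.7 CPM without Y counts and from 40.2 through 93.9 to 231.3 CPM with them.

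The slopes of the 4 acyl-CoA dehydrogenases described here fell in the order of the chain length they accept, whereas Acad9, a relative known to act on very long chains, had a slope of 0.11. Acadvl (chromosome 11, 70010183 to 70015411) rose by 0.96 ± 0.040 per SD of Ucp1, Acadl (chromosome 1, 66830839 to 66863277) by 0.79 ± 0.038, Acadm (chromosome 3, 153922357 to 153944632) by 0.64 ± 0.030 and Acads (chromosome 5, 115110299 to 115119346) by 0.52 ± 0.026. Acadvl ran from 94.2 through a median of 512.8 to 2297 CPM in libraries without Y counts and from 93.2 through 164.96 to 446.6 CPM in those with them. Acads ran from 53.8 through 153.9 to 400.4 CPM and from 45.2 through 85.8 to 172.7 CPM. Both genes began at about the same low level in both sets of libraries, while the upper end differed.

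The differences between neighbouring genes of this order are given as ratios, which restate the slopes they were chosen from and are a description. In libraries without Y counts the log2 ratio of Acadvl to Acadl rose by 0.053 ± 0.0044 (SE) per doubling of Ucp1, that of Acadl to Acadm by 0.059 ± 0.0062 and that of Acadm to Acads by 0.041 ± 0.0056. In libraries with Y counts the same values were 0.017 ± 0.0090, 0.0081 ± 0.0096 and 0.0082 ± 0.0081. Acadvl shares 2119 bases with Dvl2 on the opposite strand, and their r was 0.501 without and 0.171 with Y counts. Acadl holds the pseudogene Gm15793, which stayed at a mean of 0.261 ± 0.201 CPM (SD).

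Hadha and Hadhb encode the alpha and beta subunits of the trifunctional protein. They lie head to head on chromosome 5, Hadha at 30118304 to 30155162 on the minus strand and Hadhb at 30155248 to 30184593 on the plus strand, with annotated starts 86 bases apart. The stretch between these GENCODE starts (chr5:30155163-30155247, plus strand, letters from the RefSeq promoter table, GRCm38) is shown because its 85 bases lie upstream of both genes in either annotation, whose transcripts were the closest pair of the set. Capitals are not used, since no part is marked, and 69.4% of its bases are G or C. RefSeq places the starts farther apart, at 30154980 for Hadha and 30155253 for Hadhb.
Hadha-Hadhb: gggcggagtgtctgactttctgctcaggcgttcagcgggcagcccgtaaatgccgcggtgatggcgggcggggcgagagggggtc

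The subunits varied closely together. Hadha had a lowest level of 194.3, a median of 600.1 and a highest level of 2901 CPM without Y counts and of 174.3, 263.5 and 547.6 CPM with them, and Hadhb had 227.3, 846 and 3648 CPM and 198.9, 324.2 and 684.4 CPM. The highest library was mouse DO237 for both. Across mice they correlated at r = 0.990 without and 0.909 with Y counts, and in both sets each was the gene most like the other out of 18379. The ratio of Hadhb to Hadha per kb stayed between 1.80 and 3.33 in all libraries, with an SD of 0.15 on the log2 scale. Their slopes on Ucp1 were 0.83 ± 0.032 for Hadha and 0.88 ± 0.034 for Hadhb. As a description, the log2 ratio of Hadhb to Hadha changed by 0.020 ± 0.0028 per doubling of Ucp1 without Y counts and by -0.0022 ± 0.0041 with them.

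Etfdh (chromosome 3, 79603788 to 79629500), through which electrons of every acyl-CoA dehydrogenase reach the respiratory chain, rose by 0.78 ± 0.031 per SD of Ucp1. It ran from 66.7 through a median of 238.5 to 929 CPM without Y counts and from 64.3 through 108.3 to 201.3 CPM with them. Its start lies within 1 kb of that of 4930579G24Rik on the other strand, with which r was -0.158 without and -0.0750 with Y counts.

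The rise with Ucp1 was steeper in the libraries without Y counts, the set with the higher Ucp1 levels. When each set of libraries was given its own slope, the 9 rising genes had 0.68 (Acads) to 2.38 (Cpt1b) without Y counts and 0.21 (Acads) to 1.11 (Cpt1b) with them, on the same scale per SD of all libraries. Cpt1a had -0.40 ± 0.029 without Y counts (adjusted p = 1.78e-34) and 0.07 ± 0.038 with them, which did not pass (adjusted p = 0.147). Without Y counts 68.3% of all genes passed (29.5% rising, 38.8% falling), and with them 20.7% (11.1% rising, 9.59% falling). The difference between the slopes passed for all 10 genes in the interaction test, which 51.6% of all genes passed (26.2% with a positive and 25.4% with a negative difference). It was -1.27 ± 0.078 for Cpt1b and between -0.48 (Acads) and -0.91 (Acadvl) for the other rising genes, and 0.48 ± 0.049 for Cpt1a.

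A squared term in Ucp1, added after the shape of the scatter had been seen, changed that comparison. With it, 2 of the 10 differences passed, with the opposite sign (Hadha 0.24, adjusted p = 0.0377, and Etfdh 0.23, adjusted p = 0.0498), and 2505 genes in all. The squared term itself passed for all 10 genes, as did 29.3% of all genes (17.1% positive, 12.2% negative). It was positive for the 9 rising genes, from 0.22 ± 0.029 (Acads) to 0.44 ± 0.046 (Cpt1b), and negative for Cpt1a (-0.12 ± 0.032, adjusted p = 0.00134). Since most libraries without Y counts lie beyond the Ucp1 range of the others, curvature and a difference between the sets cannot be fully told apart.

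**Figure D2:**
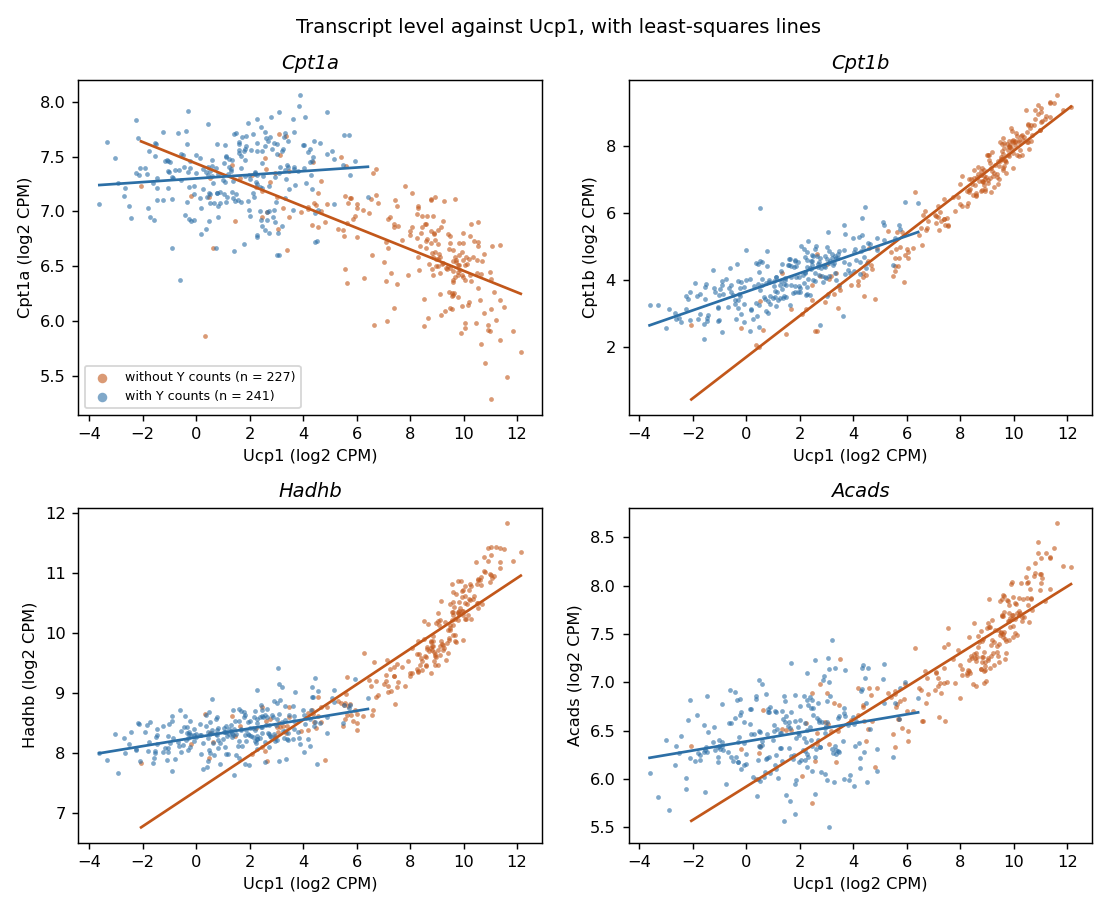
Log2 CPM of Cpt1a, Cpt1b, Hadhb and Acads against log2 CPM of Ucp1, 1 point per mouse, with libraries without Y counts in orange, with Y counts in blue, and a least-squares line for each. Cpt1b climbs along the whole range, Hadhb and Acads rise less in the blue libraries (slopes 0.31 and 0.21 per SD) than in the orange ones (1.17 and 0.68), and Cpt1a declines in the orange libraries (r = -0.643) and shows r = 0.115 in the blue ones.

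Correlations within each set gave the same picture without a common line. In libraries without Y counts r with Ucp1 was 0.964 for Cpt1b, 0.914 for Acadvl, 0.906 for Hadhb, 0.892 for Etfdh, 0.891 for Hadha, 0.878 for Acadl, 0.874 for Cpt2, 0.871 for Acads, 0.865 for Acadm and -0.643 for Cpt1a. All 10 passed (adjusted permutation p = 2.39e-05), beside 69.2% of all genes (30.9% positive, 38.3% negative), and Spearman's rho ran from 0.918 to 0.975 for the rising genes and was -0.693 for Cpt1a. With Y counts r was 0.735 for Cpt1b, 0.549 for Hadha, 0.486 for Hadhb, 0.453 for Etfdh and between 0.278 and 0.368 for Acadvl, Acadm, Cpt2, Acadl and Acads. These 9 passed (adjusted permutation p = 0.000534) beside 16.1% of all genes (7.73% positive, 8.34% negative), with rho from 0.246 to 0.740, while Cpt1a had r = 0.115 (rho 0.134, adjusted permutation p = 0.210). Leaving out the 2 libraries farthest from the median of Ucp1 left r between 0.861 and 0.968 for the rising genes without Y counts and between 0.257 and 0.735 with them. Within the 10 blocks, r of the rising genes ran from 0.793 to 0.977 without Y counts. With Y counts it was positive in every block, down to 0.0652 for Acadl and 0.0736 for Cpt2. Cpt1a stayed negative in every block without Y counts (-0.749 to -0.364) and took both signs with them (-0.127 to 0.288).

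For Pparg, the adipocyte receptor, slopes per SD over all libraries were smaller in size than for Ucp1. The SD over all libraries holds the gap in Ucp1 between the sets. Within them the SD of log2 Ucp1 was 2.80 without and 2.06 with Y counts, and that of log2 Pparg 0.35 and 0.33. Per SD of log2 Pparg (0.40 log2 units) the 9 genes other than Cpt1a rose by 0.28 ± 0.021 (Acads) to 0.50 ± 0.061 (Cpt1b), and Cpt1a fell by 0.16 on the log2 scale (SE 0.019). All 10 passed, with adjusted p of 1.01e-14 (Cpt1b, edgeR's quasi-likelihood test) or less, beside 68.3% of all genes (28.8% rising, 39.5% falling). The median slope of the 10 was 0.35, against -0.02 over all genes. With Ucp1 and Pparg in the same model all 10 still passed for both, beside 52.7% of all genes for Ucp1 (24.7% rising, 28% falling) and 64.3% for Pparg (27.9% rising, 36.4% falling). The slope of Cpt1b on Pparg went from 0.50 to 0.17 and those of the other 8 rising genes to between 0.18 and 0.24, while their slopes on Ucp1 given Pparg stayed at 0.43 to 1.84.

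By set, the slopes on Pparg were 0.39 (Acads) to 1.04 (Cpt1b) for the rising genes without Y counts and 0.09 (Cpt1b, adjusted p = 0.378, not past the threshold) to 0.18 (Cpt2) with them. All 10 passed without Y counts, beside 65.1% of all genes (29.4% rising, 35.7% falling), and 9 with them, Cpt1a falling among these, beside 51.8% (20.6% rising, 31.2% falling). The interaction passed for all 10, beside 45.1% of all genes (18.4% positive, 26.6% negative), from -0.23 (Acads) to -0.96 (Cpt1b) and 0.19 for Cpt1a. With a squared term all 10 passed too, beside 3887 genes in all. Correlations with Pparg were 0.541 to 0.608 for the rising genes and -0.530 for Cpt1a without Y counts (adjusted permutation p = 2.75e-05, beside 65.9% of all genes, 29.6% positive and 36.3% negative), with rho of 0.520 to 0.570 and -0.480. With Y counts they were 0.256 to 0.416 (rho 0.241 to 0.382) for 8 genes, which passed with adjusted permutation p of 0.000157 or less beside 47.6% of all genes (21.6% positive, 26% negative), and did not pass for Cpt1b (r = 0.122, rho 0.130, adjusted permutation p = 0.109) or Cpt1a (r = -0.139, rho -0.140, adjusted permutation p = 0.0625). In libraries with Y counts r was higher with Pparg than with Ucp1 for Acads (0.394 against 0.278), Acadm (0.365 against 0.335) and Cpt2 (0.351 against 0.329). The other rising genes had the higher r with Ucp1 there. Without the 2 libraries farthest from the median of Pparg, r of the rising genes was 0.509 to 0.595 without Y counts and 0.139 to 0.392 with them. Within blocks r was positive for all 9 rising genes without Y counts (0.379 to 0.748). With Y counts it reached values at or under 0 in a block for Cpt2 (-0.0200), Acadl (-0.0305) and Cpt1b (-0.000734).

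**Figure D3:**
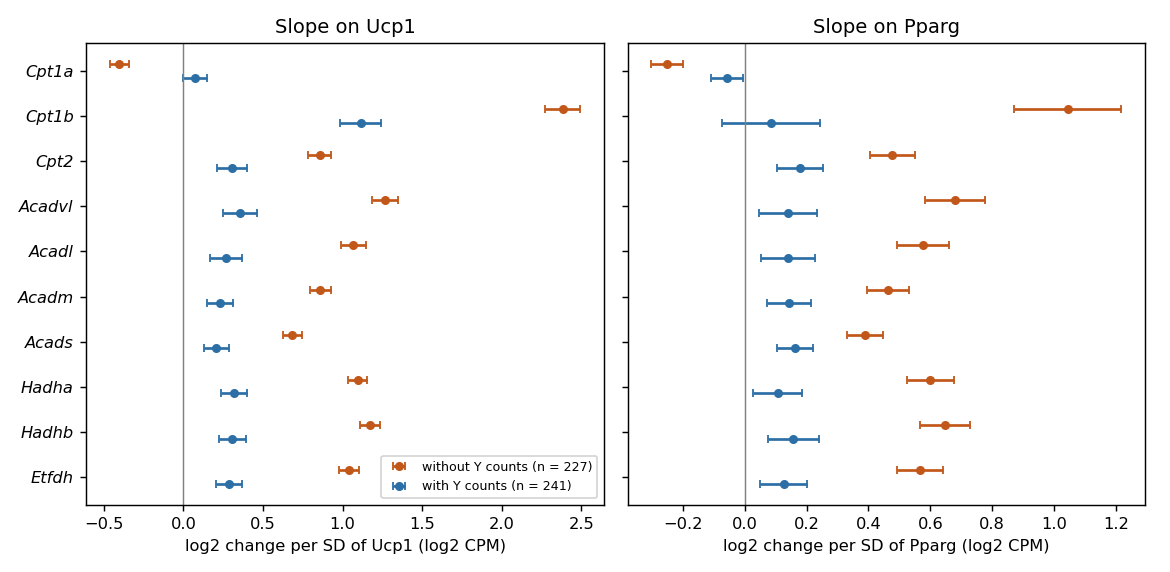
Log2 change of each gene per SD of Ucp1 (left) and of Pparg (right), fitted apart for libraries without Y counts (orange) and with Y counts (blue), with bars of 2 SE. On Ucp1, Cpt1b stands far to the right in both sets (2.38 and 1.11), and Cpt1a is the gene with a negative slope without Y counts (-0.40).

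The genes also co-varied with each other, in correlations from which Ucp1 was not removed. Of their 45 pairs the median r was 0.958 without Y counts, against -0.0430 for pairs of a member with genes outside the set, and 0.729 with Y counts, against -0.0299. All 36 pairs that leave out Cpt1a were positive, at 0.925 to 0.990 without and 0.273 to 0.909 with Y counts. The 9 pairs of Cpt1a were all negative without Y counts (-0.780 to -0.671) and 8 of them negative with Y counts (-0.541 to 0.194, the positive one with Cpt1b). With Y counts Cpt1b was also set apart, with a median r of 0.415 to the 8 genes downstream of CPT1, which had 0.777 among themselves. Within blocks of library number the median over the 45 pairs ran from 0.932 to 0.966 without and from 0.719 to 0.768 with Y counts. These correlations share library, depth and normalization and are given as a description.

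**Figure D4:**
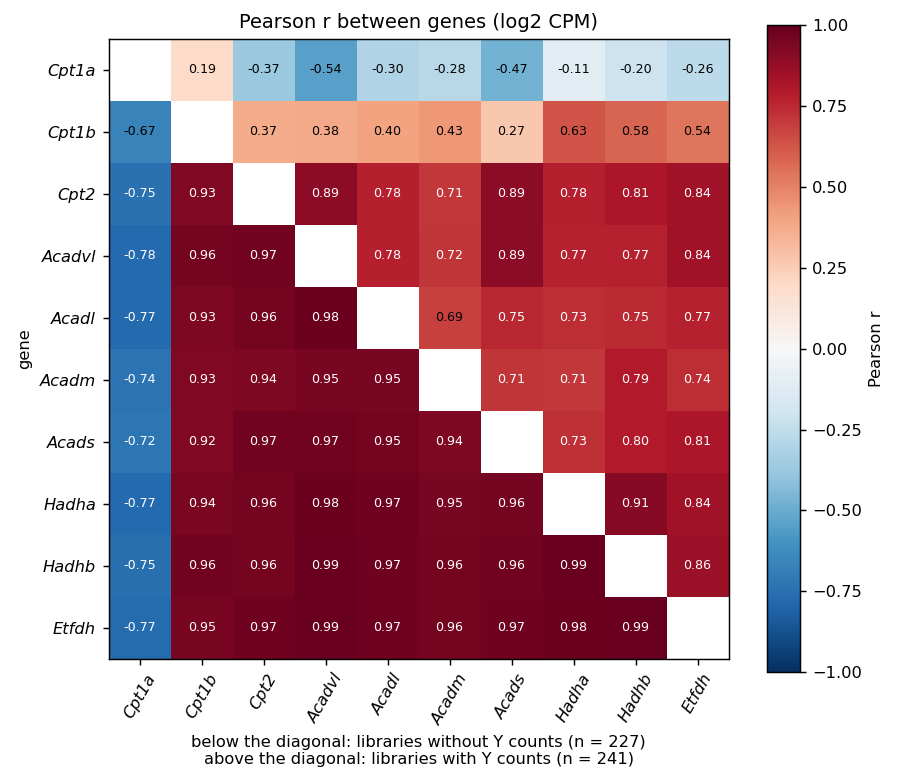
Pearson r of log2 CPM for each pair of the 10 genes, below the diagonal in libraries without Y counts and above it in those with Y counts. Blocks of red show the positive pairs among the genes downstream of CPT1, the blue first column and the mostly blue first row are the pairs of Cpt1a, and the paler second row shows Cpt1b with Y counts (0.273 to 0.632 with genes other than Cpt1a).

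The co-variation was also measured relative to the respiratory chain. After the mean z-score of 32 oxidative phosphorylation genes had been regressed out, the median pair r fell to 0.615 without and 0.462 with Y counts, and the 9 pairs of Cpt1a were positive without Y counts (0.0558 to 0.377). With that score added to the model, chosen after seeing the data, the slope of Cpt1a on Ucp1 turned to 0.12 (adjusted p = 6.2e-06), while the other 9 still rose, by 0.08 (Acads) to 1.41 (Cpt1b). Under that model 6984 of the 18379 genes tested passed for Ucp1. On Pparg, 2 of the 10 still passed (Hadhb 0.05, Acads 0.03), beside 10063 of the 18379 genes tested.

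The genes most like the set encode mitochondrial proteins. Among 9330 genes outside the lists with a mean of at least 10 CPM, the mean of the r within each set with the members' mean z-score was highest for Vwa8 (0.901), a mitochondrial ATPase, Gfm1 (0.898), a mitochondrial elongation factor, Chchd3 (0.889) and Immt (0.879), which shape the cristae, and Lonp1 (0.886), a matrix protease. Among single members, Cpt1b was most like Cox7a1, a respiratory chain subunit known from muscle and brown fat, without Y counts (0.977) and most like Ucp1 with them (0.735).

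Other steps of fatty acid metabolism were counted from lists written from general knowledge. The counts stand beside 26.5% of all genes rising and 36.7% falling with Ucp1. Of the other matrix enzymes of beta-oxidation, 10 of 10 rose with Ucp1, from Acad9 (0.11) to the thiolase Acaa2 (1.01). The enzymes for unsaturated and odd chains rose in 7 of 7 measured (Mmut 0.23 to Eci1 0.62). The electron transfer flavoprotein genes and the related genes listed with them rose in 4 of 4 (Etfbkmt 0.19 to Etfb 0.45). Those of peroxisomal beta-oxidation rose in 9 of 11, with Ehhadh highest (0.73) and Abcd2 lowest (-0.03, not past the threshold). Among genes of activation and entry 7 of 11 rose and 2 fell, from the fatty acid binding protein Fabp3 (2.31, above Cpt1b) to Cpt1c (-0.19), a CPT1 relative known from brain.

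Of the 3 genes that set malonyl-CoA, the inhibitor of CPT1, all rose, from Mlycd (0.40), which breaks it down, to Acacb (0.84), which makes it. Fatty acid synthesis rose in 8 of 8 (Scd1 0.10 to Elovl6 0.88). The citric acid cycle rose in 13 of 13 (median slope 0.65, lowest Suclg2 at 0.35) and oxidative phosphorylation in 31 of 32 (Uqcrc1 highest at 0.66, Atp5g1 fell with -0.12). Ketone body enzymes were split, 2 rising and 2 falling, with Bdh1 lowest at -0.44. Of 10 regulators 8 rose and 1 fell, with Ppara, the receptor known to drive fatty acid oxidation genes, at 1.41 and its partner Rxra at -0.06.

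**Figure D5:**
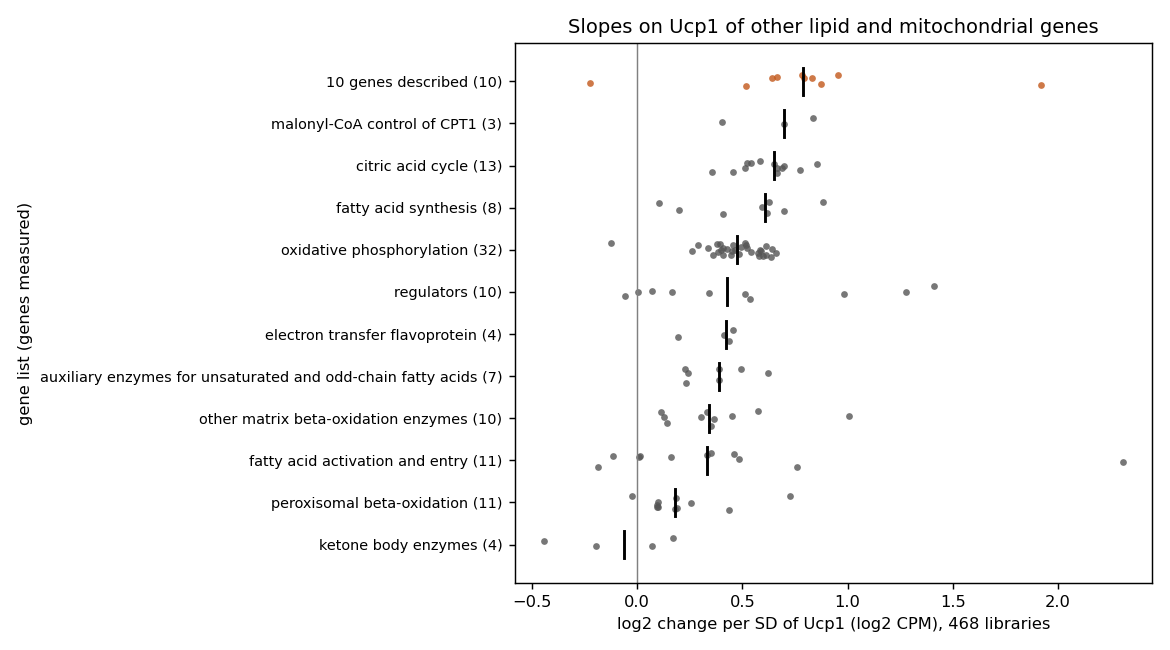
Slope on Ucp1 (log2 change per SD, all libraries) of each gene in the lists of lipid and mitochondrial genes, with the 10 genes described here in orange at the top and black bars as medians. The orange median of 0.79 lies to the right of the list medians, and Cpt1a (-0.22) and Cpt1b (1.92) are its extremes.

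Within libraries with Y counts fewer genes of any kind passed (20.7% of all genes, 11.1% rising, against 68.3% without Y counts). Of these lists, 3 of the 10 other matrix enzymes, 0 of the 3 malonyl-CoA genes (2 at an unadjusted p under 0.05 by edgeR) and 2 of 8 synthesis genes rose there, and 12 of 13 citric acid cycle genes rose (median slope 0.19).

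Acadm, the medium-chain enzyme, was the gene whose promoter held the letters AAGGTCA (the nuclear receptor half-site AGGTCA with a preceding A, searched on both strands) in the RefSeq table, which had entries for 9 of the 10 genes. The motif occurs in 4.72% of 32851 promoters of that table. Its upstream 250 bases (chr3:153944644-153944893, minus strand, GRCm38) are shown for that match, which is in capitals and lies on the opposite strand. No promoter of the 9 held an AGGTCA repeat spaced by 1 base with up to 2 mismatches, an arrangement known for PPAR sites, which occurs in 3.86% of all promoters. With 9 promoters and that share, finding none carries little weight. Both searches covered 250 bases before and 50 bases after the RefSeq start, and sites elsewhere were not searched.
Acadm: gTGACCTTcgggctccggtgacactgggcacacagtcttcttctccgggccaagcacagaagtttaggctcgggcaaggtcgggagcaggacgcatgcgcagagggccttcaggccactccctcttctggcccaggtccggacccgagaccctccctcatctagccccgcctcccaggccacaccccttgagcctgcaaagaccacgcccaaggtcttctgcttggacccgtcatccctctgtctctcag

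Cell type markers moved with Ucp1 in differing directions, beside 26.5% of all genes rising and 36.7% falling. By set, these shares were 29.5% and 38.8% without Y counts and 11.1% and 9.59% with them. Adipocyte markers were split over all libraries, 4 of 10 rising and 4 falling (median slope -0.0003). Endothelial markers fell in 5 of 7 and adipocyte progenitor markers in 4 of 8, with 0 rising in either list. Brown and beige adipocyte markers rose in 9 of 9 other than Ucp1 (Prdm16 0.51 to Cidea 2.05), and their summed level with Ucp1 ran from 49.2 to 7183 CPM without Y counts and from 45.9 to 328.8 CPM with them. Macrophage markers fell in 11 of 12 over all libraries and in 12 of 12 without Y counts (median slope -0.51) and rose in 12 of 12 with them (0.37). Of 12 muscle markers, 7 rose and 1 fell over all libraries, with Mb, which brown fat also expresses, highest (1.38). They rose in 11 of 12 without Y counts (median slope 1.21) and in 0 of 12 with them (median 0.0017). In the latter, 1 of 12 had an unadjusted p under 0.05 by edgeR, with a negative slope. Mesothelium markers fell in 6 of 6 over all libraries (median -0.24). Liver markers fell in 1 of 8 over all libraries, in 0 of 8 without Y counts (median 0.19, 0 at an unadjusted p under 0.05) and in 6 of 8 with them (median -1.01). Liver and mesothelium scores were not added to the model, and their part in the result was not tested. With scores for adipocytes and macrophages added to the model, all 10 genes still passed, beside 11256 of the 18379 genes tested. Their slopes were 1.84 for Cpt1b, 0.47 to 0.86 for the other rising genes and -0.15 for Cpt1a. Without the 10% of libraries highest in muscle markers the slopes were 1.88, 0.50 to 0.92 and -0.21. The share of brown or beige cells in each sample was not measured.

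The genes were also set against the mouse and library numbers in the labels. By edgeR 0 of the 10 passed for either number, beside 13.7% of all genes for mouse number (5.01% rising, 8.71% falling) and 0.294% for library number, and the slopes per 100 numbers lay between -0.01 and 0.02 for mouse number and between -0.06 and 0.02 for library number. At an unadjusted p under 0.05 the count was 0 of 10 for mouse number and 2 of 10 for library number (Acadl -0.05, p = 0.0400, and Etfdh -0.04, p = 0.0379, edgeR's quasi-likelihood test).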

How the data were processed

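Adipose RNA of 468 mice, 1 library each in a single group, was analysed (227 libraries without and 241 with Y counts). Polyadenylated RNA was sequenced as paired reads, and the authors estimated abundance with EMASE through GBRS against a transcriptome of all founder strains, aligning both ends of a pair as single reads. The values the authors deposited are expected counts per gene (66.8% were whole within 1e-06) and log2-scale values of the DESeq2 variance stabilizing transformation, made on GRCm38 per the labels; the sources used here give no other versions. Total counts were 35.3 M to 138 M (M, 1000000).

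Genes with at least 10 counts in a share of 0.5 of the libraries were kept (18380 of 23180). Counts were rounded for edgeR 4.0.16 (quasi-likelihood, TMM factors 0.578 to 1.36) and DESeq2 1.42.0. CPM used the unrounded counts, and log2 CPM a prior count of 2. Ucp1 and Pparg entered as z-scored log2 CPM. P-values were adjusted by Benjamini-Hochberg over all genes tested, with a threshold of 0.05. They set a slope or r against the spread between mice, with each mouse taken as independent. Kinship, generation and wave, which the study used in its own models, were not in the models here. Permutation tests used 100000 resamples and were two-sided. Blocks held 36 to 57 libraries. Slopes and permutations were tested on simulated data. Exon lengths, positions and neighbours (overlapping a gene or starting within 1 kb of its start) came from GENCODE M21. Expectation maximization divides reads between overlapping genes, and use of strand is not stated.

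The 10 genes and all lists were chosen with earlier results of these data known. Named are the 10 genes, Ucp1, Pparg, their annotated neighbours, the highest and lowest Ucp1 slope of each pathway list, the 5 genes most like the set, and, chosen after their values were seen, Cox7a1 as a nearest gene and the squared terms, ratios and respiratory chain score. Some results that this rule would name are not reported here.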

Additional observations from a re-analysis of the deposited data

Results flagged for a closer look

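The slopes of all 10 genes on Ucp1 differed between the libraries with and without Y counts by the interaction test (with minus without, log2 per SD), which 51.6% of all genes passed: Acadl -0.80, Acadm -0.63, Acads -0.48, Acadvl -0.91, Cpt1a 0.48, Cpt1b -1.27, Cpt2 -0.55, Etfdh -0.75, Hadha -0.78 and Hadhb -0.86. The slopes on Pparg differed as well, beside 45.1% of all genes: Acadl -0.44, Acadm -0.32, Acads -0.23, Acadvl -0.54, Cpt1a 0.19, Cpt1b -0.96, Cpt2 -0.30, Etfdh -0.44, Hadha -0.49 and Hadhb -0.49. With a squared term, 2 of the differences on Ucp1 passed, with the opposite sign, beside 2505 genes in all. All 10 on Pparg passed, beside 3887 genes in all.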

How the results depend on the processing

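Under the 12 alternatives planned for each slope (other scaling, no filter, limma, DESeq2, added covariates, libraries left out), all 10 slopes on Ucp1 and on Pparg kept their direction and stayed past the threshold, with Cpt1b at 1.69 to 1.97 and Cpt1a at -0.34 to -0.15 on Ucp1, and 0.49 to 1.13 and -0.28 to -0.10 on Pparg. Under the same alternatives 11134 to 14448 genes passed for Ucp1 and 11203 to 14284 for Pparg. Alternatives chosen after seeing the data moved more. With the oxidative phosphorylation score, 6984 genes passed for Ucp1 (11613 without it) and the slope of Cpt1a became 0.12. For Pparg 10063 genes passed with that score (12546 without it), and 2 of the 10 did, with Acadvl at -0.019, Cpt1a at 0.0073 and Cpt1b at -0.013. Within libraries with Y counts 3803 genes passed for Ucp1 and Cpt1a had 0.075. With a squared term, 2505 genes and 2 of the 10 passed for the Ucp1 difference, with reversed values for Acadl (0.12), Acadm (0.021), Acads (0.067), Acadvl (0.074), Cpt2 (0.18), Etfdh (0.23), Hadha (0.24) and Hadhb (0.15), and 3887 genes for the Pparg difference. The cause was not tested.

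For library number 54 genes passed, 140 without the filter, 29 without the 10% of libraries lowest in total count and 0 by limma. For mouse number 2522 passed, and 4362 without the Y covariate, where the slopes of the 10 genes changed sign, none past the threshold: Acadl -0.0615, Acadm -0.040, Acads -0.040, Acadvl -0.062, Cpt1a 0.033, Cpt1b -0.095, Cpt2 -0.053, Etfdh -0.048, Hadha -0.047 and Hadhb -0.054. The median pair r became 0.615 without and 0.462 with Y counts once the respiratory score was removed, and 0.700 with Y counts by Spearman's rho. The r of Cpt1a with Pparg with Y counts passed under 4 alternatives (-0.153 to -0.149). No paired analysis was possible because each mouse gave 1 library.

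The labels give no sex, generation or batch, and Ucp1 is itself a transcript measured in the same libraries, so slopes on it are descriptions of shared variation. The lowest count of a fatty acid oxidation gene described here was 230.9, so few reads were not the limit for those genes. Ucp1 itself was low in libraries with Y counts, with a lowest level of 0.0573 and a median of 3.02 CPM. Whether counting error at such Ucp1 levels weakened the slopes and r on Ucp1 in that set was not tested.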
